A study of Mus musculus with 6 samples.

Results

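The miR-17-92 cluster is a group of 6 microRNA (miRNA) hairpins that lie next to each other and are cut from 1 long transcript. Its members were chosen by name: mmu-miR-17-5p, mmu-miR-17-3p, mmu-miR-18a-5p, mmu-miR-18a-3p, mmu-miR-19a-3p, mmu-miR-20a-5p, mmu-miR-20a-3p, mmu-miR-19b-3p and mmu-miR-92a-3p (mmu, for mouse, is left out from here on), which make up 9 of the 1522 miRNA rows of the deposited table. The small RNA came from hippocampal neural stem cells (NSCs), which divide and give rise to neurons and glia, of C57BL/6J males on postnatal day 3. In the gestational dexamethasone exposure group (GDE, titled IUGR) the dams had received dexamethasone, a synthetic glucocorticoid, at 1 mg/kg intraperitoneally each day between E14.5 and E18.5. In the Control group (titled Normal) the dams had received saline on those days. Each group had 3 libraries, which the design text assigns to independent litters, and neither group carried a transgene or mutation according to the labels. How many pups went into each library is not stated in the labels, and the p-values measure the spread between these libraries.

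The primary transcript of the cluster is cut into hairpins by Drosha, and each hairpin is cut by Dicer into a duplex whose 5′ strand is named 5p and whose 3′ strand is named 3p. The strand that enters an Argonaute protein, the guide, pairs with messenger RNAs mainly through its seed, while the other strand is mostly degraded. The cluster is switched on by Myc and E2F proteins and is known for keeping cells dividing and alive: miR-17 and miR-20a lower the cell cycle inhibitor Cdkn1a, and miR-92a lowers the pro-apoptotic Bcl2l11. In mouse neural progenitors its loss reduces the pool of dividing cells, and in rat neural cells miR-18a has been reported to lower the glucocorticoid receptor.

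The 9 mature sequences fall into a few seed families and are shown because the seed (bases 2 to 8, in capitals) decides which members can share targets. They are RefSeq sequences of the GRCm38.p6 build, written 5′ to 3′, and RefSeq held all 9. The guide strands with the miR-17 seed come first, then those with the miR-18, miR-19 and miR-92 seeds, then the other arms.
miR-17-5p: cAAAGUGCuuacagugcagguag
miR-20a-5p: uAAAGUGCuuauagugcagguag
miR-18a-5p: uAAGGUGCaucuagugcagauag
miR-19a-3p: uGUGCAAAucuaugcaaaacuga
miR-19b-3p: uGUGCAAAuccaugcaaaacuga
miR-92a-3p: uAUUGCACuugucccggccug
miR-17-3p: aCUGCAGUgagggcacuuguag
miR-18a-3p: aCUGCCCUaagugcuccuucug
miR-20a-3p: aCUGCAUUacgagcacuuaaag

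Counted from 1 at the 5′ end, miR-17-5p and miR-20a-5p differ by C1U and C12U, both outside the seed. The pair miR-19a-3p and miR-19b-3p differs by the single substitution U11C, so their seeds are the same.

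Levels are given in RPM, the sequenced tags of a miRNA scaled to the depth of its library. All 6 hairpins lie on the plus strand of mouse chromosome 14 within 836 bases, with gaps of 35 to 96 bases between neighbours. Their order is Mir17 (chr14:115043671-115043754), Mir18 (chr14:115043851-115043946), Mir19a (chr14:115044000-115044081), Mir20a (chr14:115044157-115044263), Mir19b-1 (chr14:115044305-115044391) and Mir92-1 (chr14:115044427-115044506). GENCODE M21 places all 6 in exon 2 (chr14:115043271-115046727) of the long non-coding host gene Mir17hg, so none is in a coding exon. The mature miR-19b-3p and miR-92a-3p have the same sequence when made from a second hairpin each, Mir19b-2 and Mir92-2 of the miR-106a-363 cluster on chromosome X.

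**Figure D1:**
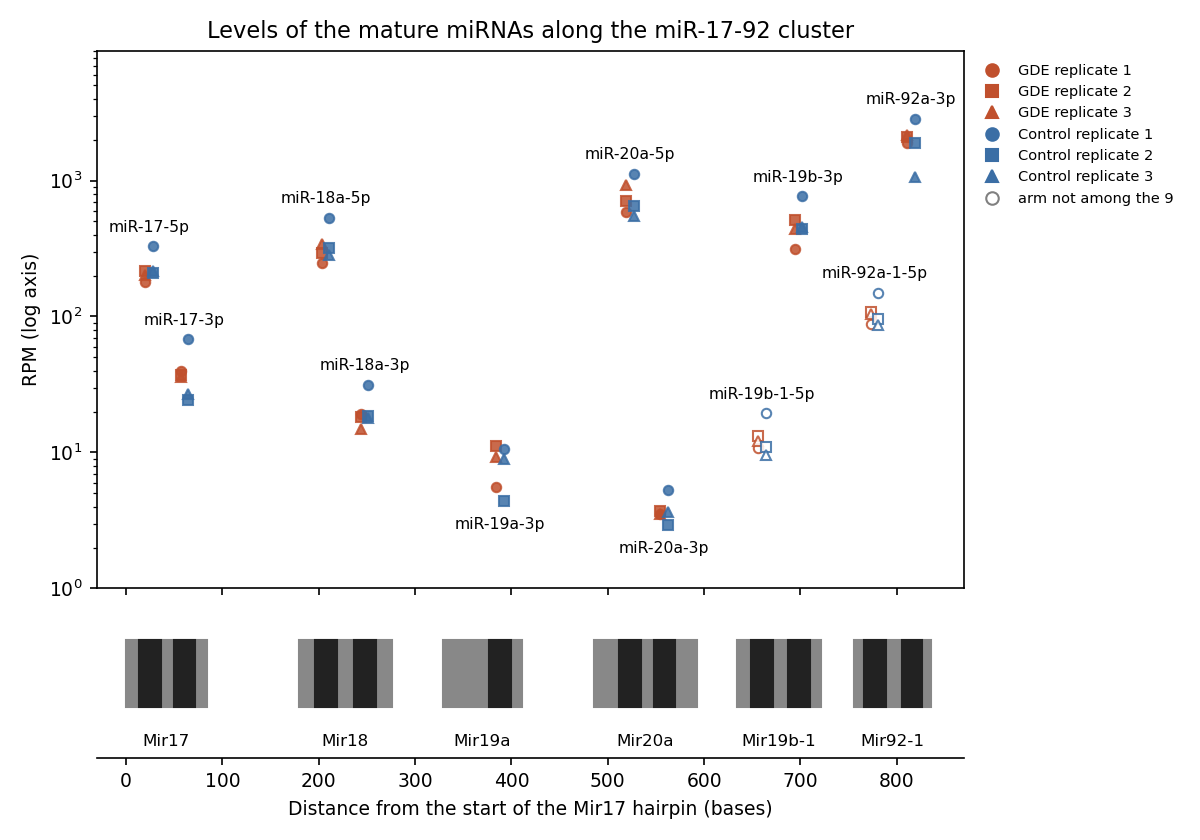
The 6 hairpins of the miR-17-92 cluster are drawn to scale by distance in bases, dark bands mark mature arms, and the level of each arm in each library stands over it in RPM on a log axis, with open symbols for arms outside the 9. Level does not follow position: the last hairpin gives the highest arm, miR-92a-3p, and Mir19a, between Mir18 and Mir20a, gives a guide of 4.36 to 11.2 RPM.

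The libraries held 11751322 to 12384958 tags, worked out from the value of 1 tag, 0.0807 to 0.0851 RPM. Of these tags, 2927136 to 3343808 stood in the miRNA rows of the table. The cells were checked against marker miRNAs. The neural markers miR-9-5p and miR-9-3p, made by neural progenitors and also by neurons, summed to 15328 to 17058 RPM in GDE libraries and 15719 to 16712 RPM in Control libraries. The 2 neuronal markers, miR-124-3p and miR-128-3p, summed to 741.0 to 910.7 RPM in GDE libraries and 783.2 to 1072 RPM in Control libraries. The 2 oligodendrocyte markers, miR-338-3p and miR-219a-2-3p, summed to 201.7 to 257.9 RPM and 157.6 to 231.3 RPM in GDE and Control libraries. Nearly all of this was miR-338-3p, since miR-219a-2-3p was at only 1.42 to 3.81 RPM. Of the 8 markers of other cells, the leukocyte, myeloid and erythroid ones were detected in every library (3 of 3). They summed to 140.4 to 187.6 RPM in GDE libraries and 44.3 to 117.2 RPM in Control libraries, ranges that do not overlap. Each of the 3 was also apart in this way on its own, as were 14.6% of the 649 miRNAs tested. The unadjusted limma p of the 3 was 0.0076 to 0.039, and 8.63% of all tested lay under 0.05. None of these 3 markers was called (limma Benjamini-Hochberg adjusted p of 0.551 to 0.561). The 2 endothelial and mural markers summed to 317.1 to 536.6 RPM in GDE libraries and 301.5 to 391.0 RPM in Control libraries, and the 3 liver and muscle markers to at most 18.9 RPM in any library. Markers cannot tell an NSC from a young neuron here, and in such bulk RNA fewer cells of a type cannot be told apart from less RNA per cell.

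The members stood in the same order in all 6 libraries, with levels from 2.91 to 2831 RPM. From highest to lowest the order was miR-92a-3p, miR-20a-5p, miR-19b-3p, miR-18a-5p, miR-17-5p, miR-17-3p, miR-18a-3p, miR-19a-3p and miR-20a-3p. Within a library each member exceeded the next in 6 of 6 libraries, but over the 6 libraries the ranges of most neighbours overlapped. The exceptions were miR-17-5p over miR-17-3p, where the lowest library of miR-17-5p (179.7 RPM) lay above the highest of miR-17-3p (67.9 RPM), and miR-18a-3p over miR-19a-3p, at 14.9 RPM against 11.2 RPM. Ligation and amplification differ between small RNA sequences, so levels of different members in RPM are not molar amounts.

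The guide of the last hairpin, miR-92a-3p, was at 1873, 2073 and 2169 RPM in GDE libraries 1 to 3 and at 2831, 1883 and 1064 RPM in Control libraries 1 to 3. The Control libraries enclosed all GDE libraries, with Control 1 highest and Control 3 lowest. It supplied 57.3%, 53.5% and 52.4% of the summed RPM of the 9 members in GDE libraries, and 49.8%, 53.0% and 40.5% in Control libraries. In limma its log2 difference, GDE minus Control, was 0.19 (SE 0.31, 95% interval -0.52 to 0.90, Benjamini-Hochberg adjusted p = 0.901). Such differences of a single miRNA, here and below, are of log2(RPM + 1) values unless another setting is named.

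The cell cycle guide miR-20a-5p was second, at 583.5, 710.2 and 923.4 RPM in GDE libraries and 1118, 654.5 and 550.0 RPM in Control libraries. Its sequence neighbour miR-17-5p, with the same seed, was at 179.7, 214.5 and 200.4 RPM in GDE libraries and 327.2, 208.2 and 214.6 RPM in Control libraries. For both, Control 1 was highest and the remaining 5 libraries overlapped. The log2 difference of miR-20a-5p was -0.02 (SE 0.28, 95% interval -0.68 to 0.63) and that of miR-17-5p was -0.31 (SE 0.22, 95% interval -0.82 to 0.21), with limma Benjamini-Hochberg adjusted p of 0.994 and 0.687. Without Control 1 they were 0.27 and -0.10. The difference of miR-20a-5p was above 0 with other scalings, 0.07 with median-of-ratios size factors.

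The miR-18 seed was carried by miR-18a-5p, which differs from the miR-17 family within the seed. It was at 248.6, 293.1 and 342.0 RPM in GDE libraries and 530.0, 319.1 and 283.7 RPM in Control libraries, so that GDE 1 was lowest, Control 1 highest and the groups overlapped. Its means were 294.6 ± 46.7 RPM in GDE libraries and 377.6 ± 133.2 RPM in Control libraries (SD, n = 3 each). The log2 difference of -0.31 (SE 0.26, 95% interval -0.92 to 0.29) had a limma Benjamini-Hochberg adjusted p of 0.723, and it was -0.04 without Control 1.

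Of the pair with the miR-19 seed, miR-19b-3p was abundant and miR-19a-3p was not. Levels of miR-19b-3p were 315.4, 512.3 and 437.0 RPM in GDE libraries and 768.0, 438.4 and 454.8 RPM in Control libraries. Levels of miR-19a-3p were 5.59, 11.2 and 9.23 RPM in GDE libraries and 10.6, 4.36 and 9.02 RPM in Control libraries, from 54 to 132 tags each. GDE 1 was the lowest library for miR-19b-3p, while for miR-19a-3p the groups interleaved and the highest value was in GDE 2. The log2 difference was -0.37 (SE 0.27, 95% interval -0.995 to 0.25) for miR-19b-3p and 0.13 (SE 0.35, 95% interval -0.68 to 0.95) for miR-19a-3p, with limma Benjamini-Hochberg adjusted p of 0.687 and 0.963. That of miR-19b-3p was -0.11 without Control 1 and -0.18 without GDE 1.

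The ratio of miR-19b-3p to miR-19a-3p was 56.4, 45.9 and 47.3 in GDE libraries and 72.8, 100.6 and 50.4 in Control libraries, although their seeds are the same and their hairpins come from 1 transcript. The hairpins are shown to set the pair side by side, with the mature arms listed by RefSeq in capitals.
Mir19a: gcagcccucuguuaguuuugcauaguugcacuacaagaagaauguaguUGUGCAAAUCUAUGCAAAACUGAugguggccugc
Mir19b-1: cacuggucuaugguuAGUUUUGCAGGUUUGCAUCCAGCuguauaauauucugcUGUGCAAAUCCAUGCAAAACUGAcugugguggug

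The groups overlapped in this ratio, with the lowest Control value (50.4) below the highest GDE value (56.4). The way the authors assigned tags that match both sequences is not given in the sources used here, so a share of miR-19a-3p tags may stand in the row of miR-19b-3p or the other way round. The other arm of Mir19a, miR-19a-5p, was at 0 to 0.255 RPM, within the limit of 3 tags that a count of 0 allows (0.242 to 0.255 RPM).

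The other arms of the remaining members were far lower than their guides. The 3p arm of miR-17 was at 39.5, 37.0 and 35.6 RPM in GDE libraries and 67.9, 24.5 and 26.7 RPM in Control libraries. Control 1 was highest and the other 2 Control libraries were lowest, below every GDE library. Its log2 difference was 0.07 (SE 0.38, 95% interval -0.81 to 0.95, limma Benjamini-Hochberg adjusted p = 0.989) and 0.53 without Control 1 (adjusted p = 0.749). The 3p arm of miR-18a was at 19.0, 18.3 and 14.9 RPM in GDE libraries and 31.3, 18.4 and 18.0 RPM in Control libraries, and that of miR-20a was lowest of all at 3.51, 3.72 and 3.55 RPM in GDE libraries and 5.32, 2.91 and 3.66 RPM in Control libraries. Control 1 was again highest for both, and the other 5 libraries overlapped. Their log2 differences were -0.32 (95% interval -0.94 to 0.30) and -0.08 (95% interval -0.60 to 0.44), and without Control 1 they were -0.07 and 0.11.

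**Figure D2:**
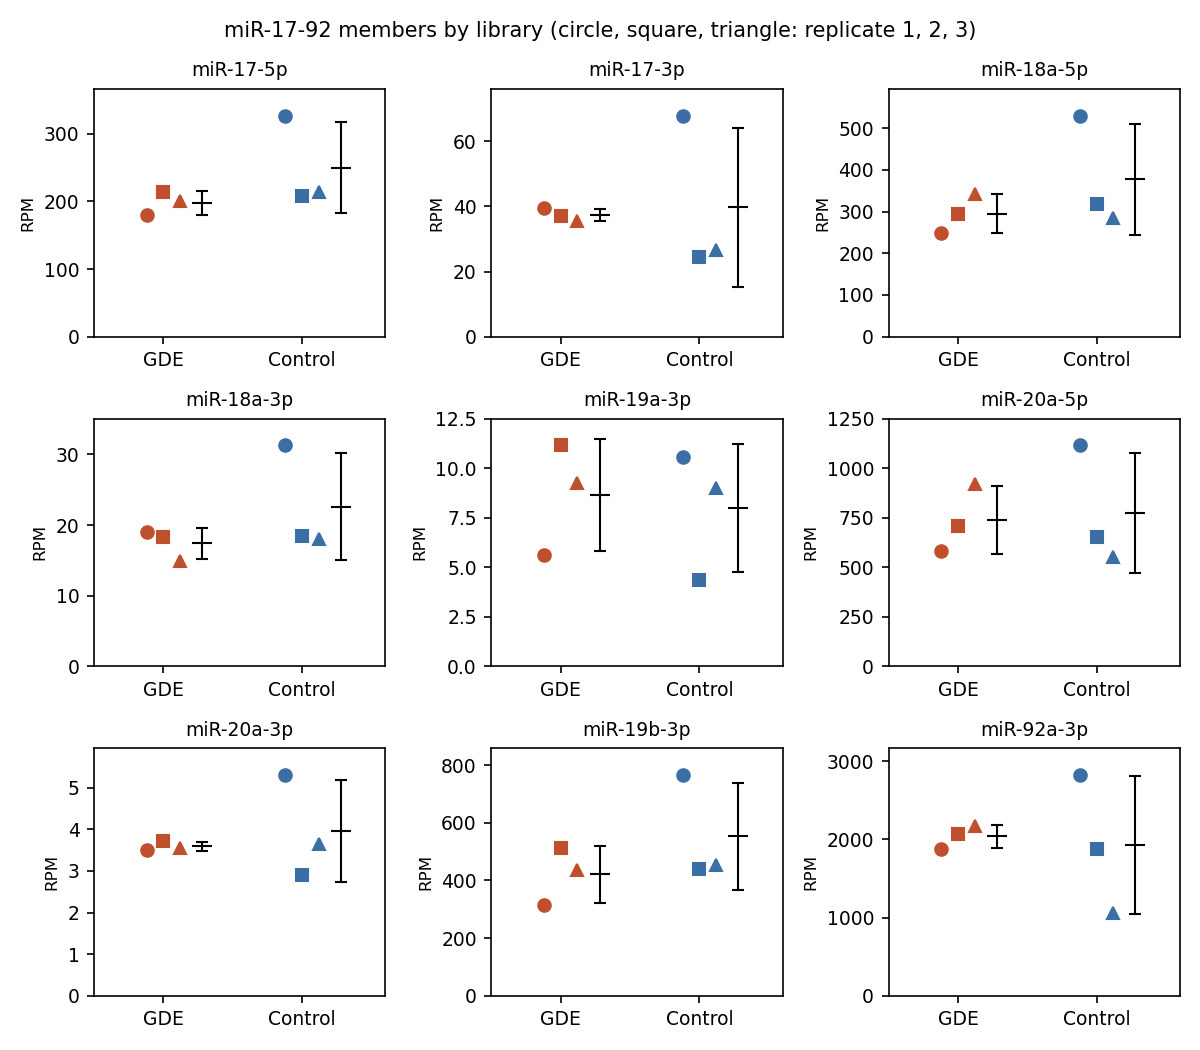
Each panel plots 1 member in RPM from 0, with a circle, square and triangle for replicates 1, 2 and 3, GDE left of Control, and bars for the mean and SD of 3 libraries. The Control 1 circle lies highest for 8 of the 9 members, and for miR-19a-3p the GDE 2 square does.

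Under the test across all miRNAs, 0 of the 9 members were called in limma, against 2 of the 649 miRNAs tested (0.308%). At an unadjusted p under 0.05 it was 0 of 9, against 8.63% of all tested. The members were also called 0 times by edgeR (0.308% of all tested), DESeq2 (1.08%) and limma-voom (0.154%) on the recovered whole tags. In none of the 9 were the groups apart in RPM, against 14.6% of the miRNAs tested. Exact two-sided permutation tests of the means gave p of 0.2 to 1 over the members, where 3 against 3 libraries cannot go below 0.1. The intervals show what was not resolved: those of the 9 members reach from -0.995 to 0.95 at their widest ends, so neither equality nor a change of up to these sizes was shown.

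The differences were 3 above and 6 below 0 among the members, with a median of -0.08, against 252 above and 397 below and a median of -0.07 over the 649 tested. With scaling to the tags of the table or to median-of-ratios size factors they were 4 above and 5 below, while the median of all tested was -0.02 or 0.01. The summed level of the 9 was 3268, 3874 and 4135 RPM in GDE libraries and 5689, 3554 and 2625 RPM in Control libraries. The Control libraries enclosed the GDE libraries, and the log2 difference of the sums, -0.01, was smaller than the within-group SD of 0.42. It was 0.29 without Control 1. With the 7 members that no other cluster makes, it was -0.14.

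**Figure D3:**
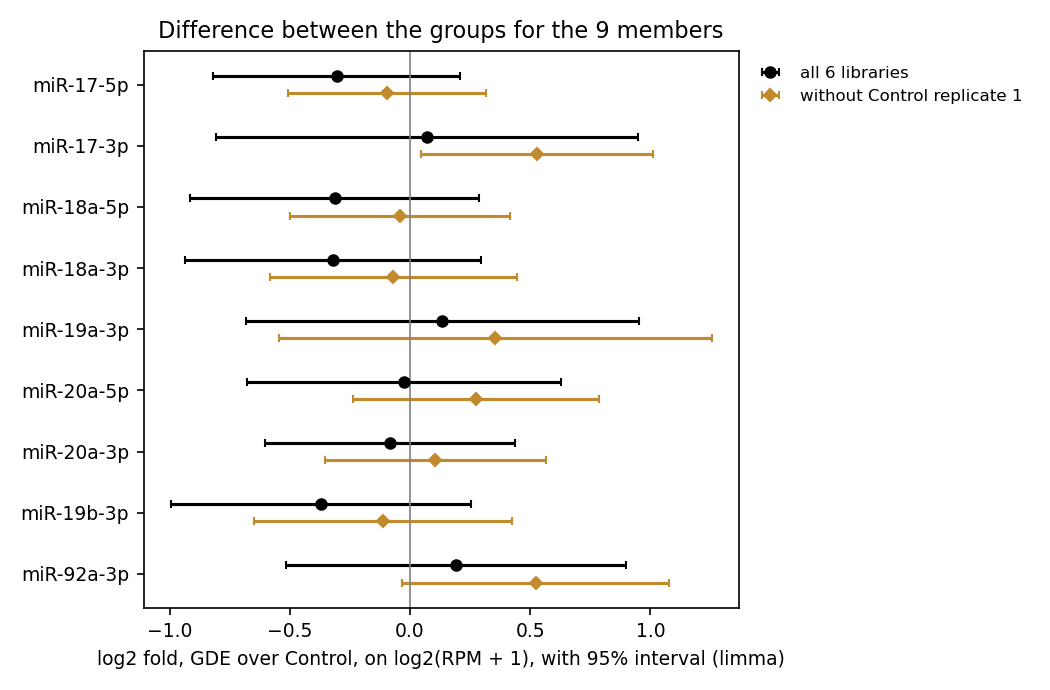
Log2 differences, GDE minus Control on log2(RPM + 1), are plotted for the 9 members with 95% intervals from limma, once with all 6 libraries and once without Control 1. All 9 intervals with all libraries span 0; without Control 1 that of miR-17-3p does not (0.04 to 1.01), and 5 of the 9 differences lie above 0, against 3 of 9 with it.

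For the members, the Control 1 library lay above the other 2 Control libraries. It held the highest level of 8 of the 9 members among the 6 libraries, against 41.4% of all 649 tested miRNAs. The members lay there a median of 0.78 log2 units above the other 2 Control libraries, each from 0.57 to 1.37. Over all tested the median was 0.18, and 65.5% lay above. All rows of the table summed to 277888 RPM in Control 1 and to 241370 to 260123 RPM in the other libraries. Of that sum the 9 members made up 2.05% in Control 1 and 1.01% to 1.71% in the other libraries. Across miRNAs, the chi-square per degree of freedom between replicates was 73.5 for Control 1 and 2. It was 79.0 for Control 2 and 3 and 139.4 for Control 1 and 3, so Control 1 was not the only distant library. The most abundant member, miR-92a-3p, lay at -1.12 log2 units from the other 2 Control libraries in Control 3, against 1.00 in Control 1. The myeloid miR-223-3p and the leukocyte miR-142a-3p were lowest in Control 1, at 16.1 and 0.249 RPM. The erythroid miR-451a, the last marker of that list, was lowest in Control 3 (20.8 RPM, against 29.9 RPM in Control 1). The list of 3 summed to 140.4, 187.6 and 141.7 RPM in GDE libraries and 46.3, 117.2 and 44.3 RPM in Control libraries, low in both Control 1 and Control 3. Their part in the levels of the members was not tested.

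Without Control 1 the differences of the members were 5 above and 4 below 0, with a median of 0.11, against -0.02 over all tested, and 0 of 9 were called (0.308% of all tested). Leaving out another Control library moved the median of the members down, as it did that of all tested. Each member moved down apart from miR-92a-3p without Control 2 (0.23) and miR-19a-3p without Control 3 (0.25). Without Control 2 the differences were 1 above and 8 below 0 with a median of -0.24, against -0.12 over all tested, and without Control 3 they were 1 above and 8 below with a median of -0.24, against -0.11. The largest without Control 1 were those of miR-17-3p (0.53) and miR-92a-3p (0.52), both with a limma Benjamini-Hochberg adjusted p of 0.749. At an unadjusted limma p under 0.05 it was 1 of 9, miR-17-3p, against 6.16% of all tested in the same fit.

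**Figure D4:**
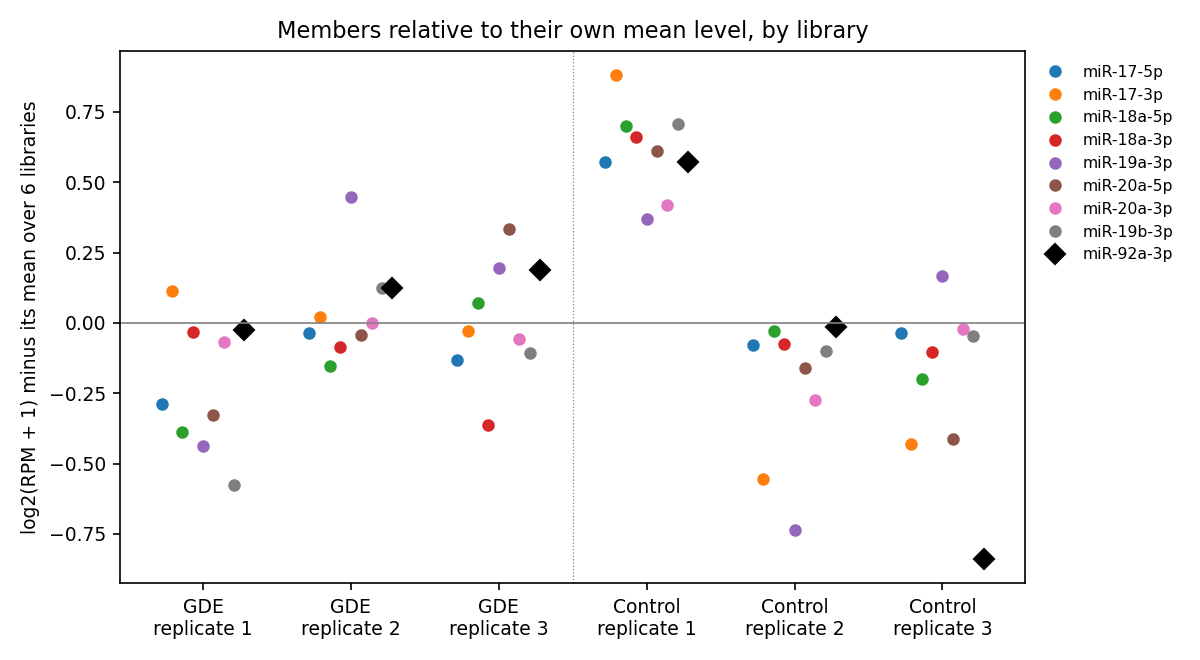
Each point is the log2(RPM + 1) of 1 member in 1 library minus the mean of that member over the 6 libraries, with GDE libraries left of Control libraries and miR-92a-3p as a black diamond. All 9 members lie above 0 in Control 1, and miR-92a-3p lies lowest in Control 3.

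Since members share a transcript, their ratios within a library were compared as well. The share of miR-17-5p in the 9-member sum was 5.50%, 5.54% and 4.85% in GDE libraries and 5.75%, 5.86% and 8.18% in Control libraries. The share of miR-18a-5p was 7.61%, 7.57% and 8.27% in GDE libraries and 9.32%, 8.98% and 10.8% in Control libraries. For these 2 of the 9 members the groups did not overlap, with GDE lower, against 7.19% of 640 other tested miRNAs set over the same sum. The members are parts of that sum, so their shares depend on each other. The other miRNAs are not part of it, so this percentage is not a like reference. In the sum without miR-92a-3p, chosen after seeing the data, the groups did not overlap in 2 of 8 members, and miR-17-5p overlapped. Of 640 other tested miRNAs set over that sum it was 6.88%, with the same limit. The share of miR-18a-5p there was lower in GDE libraries (17.8%, 16.3% and 17.4%) than in Control libraries (18.54%, 19.10% and 18.18%). The share of miR-20a-5p was 41.8%, 39.4% and 47.0% in GDE libraries, all above the 39.1%, 39.2% and 35.2% of Control libraries. The nearest libraries were close: 39.45% in GDE 2 and 39.18% in Control 2 for miR-20a-5p. For miR-18a-5p they were 17.82% in GDE 1 and 18.18% in Control 3. Gaps this small are within counting error. Of the 36 ratios between 2 members, 4 did not overlap between groups. They were miR-17-5p over miR-20a-3p, miR-17-5p over miR-92a-3p, miR-18a-5p over miR-20a-5p and miR-18a-5p over miR-92a-3p. That is 11.1%, not above the 14.7% of all ratios between 2 of the 642 tested miRNAs above 0 in all libraries. The 36 ratios depend on each other, and the difference between these percentages was not tested.

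Arm use was strongest in miR-20a and weakest in miR-17. The ratio of 5p to 3p tags for miR-17 was 4.55, 5.80 and 5.62 in GDE libraries and 4.82, 8.51 and 8.03 in Control libraries. For miR-18a it was 13.1, 16.0 and 22.9 in GDE libraries and 16.9, 17.3 and 15.7 in Control libraries. For miR-20a it was 166.4, 190.7 and 260.4 in GDE libraries and 210.2, 225.1 and 150.3 in Control libraries. In miR-17 the 3 GDE libraries and Control 1 lay together below Control 2 and 3, and in miR-18a and miR-20a GDE 3 was highest.

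None of the 3 arm ratios was called in limma, and 0 of 157 precursors were called in all (0%), with 5.73% at an unadjusted p under 0.05, none of them miR-17, miR-18a or miR-20a. The log2 ratio of miR-17 differed by -0.38 (SE 0.27, 95% interval -1.01 to 0.25, Benjamini-Hochberg adjusted p = 0.749), and by -0.63 without Control 1 (adjusted p = 0.558). Those of miR-18a and miR-20a differed by 0.01 (95% interval -0.58 to 0.59) and 0.06 (95% interval -0.56 to 0.68).

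For the 2 members with a second hairpin on chromosome X, the other arm of each hairpin tells the hairpins apart. The chromosome 14 arms are shown because they differ from the chromosome X arms outside the mature guides.
miR-19b-1-5p: aGUUUUGCagguuugcauccagc
miR-19b-2-5p: aGUUUUGCagauuugcaguucagc
miR-92a-1-5p: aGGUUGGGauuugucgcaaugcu
miR-92a-2-5p: aGGUGGGGauugguggcauuac

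The chromosome 14 arm miR-19b-1-5p was at 10.9, 13.1 and 12.2 RPM in GDE libraries and 19.4, 11.1 and 9.53 RPM in Control libraries. Over the 6 libraries it had 915 tags, against 4 tags of miR-19b-2-5p. Likewise miR-92a-1-5p was at 88.2, 107.8 and 104.7 RPM in GDE libraries and 149.3, 95.9 and 86.8 RPM in Control libraries, with 7606 tags against 2 of miR-92a-2-5p. The 8 rows of the miR-106a-363 cluster in the table summed to only 5.76 to 16.5 RPM per library. How much each hairpin gives to the shared guide was not tested, since the stability of the other arms differs.

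In the last hairpin, the ratio of miR-92a-3p to miR-92a-1-5p was 21.2, 19.2 and 20.7 in GDE libraries and 19.0, 19.6 and 12.3 in Control libraries, so that only Control 3 stood apart. The ratio of miR-19b-3p to miR-19b-1-5p was 29.1, 39.1 and 35.8 in GDE libraries, all below the 39.7, 39.6 and 47.7 of Control libraries. The nearest values, 39.1 in GDE 2 and 39.6 in Control 2, rest on 155 and 137 tags of miR-19b-1-5p. A gap this small is within counting error. Over all 157 precursors, 10.8% of arm ratios did not overlap between groups. In the fit over all miRNAs miR-19b-1-5p differed by -0.08 and miR-92a-1-5p by -0.11, with limma Benjamini-Hochberg adjusted p of 0.984 and 0.948.

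Other clusters carry some of the same seeds. The miRNAs with the miR-17 seed, 6 rows that also include miR-93-5p and miR-106b-5p of the miR-106b-25 cluster, summed to 4190, 4309 and 4036 RPM in GDE libraries and 5728, 4460 and 3951 RPM in Control libraries. Of this pool miR-17-5p and miR-20a-5p made up 18.2%, 21.5% and 27.8% in GDE libraries and 25.2%, 19.3% and 19.4% in Control libraries. Most of the rest was miR-93-5p, at 3194, 3200 and 2766 RPM in GDE libraries and 4026, 3417 and 2997 RPM in Control libraries.

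The miR-18 seed was nearly all from this cluster (99.6% to 99.97% in a library), and for the miR-19 seed the table held no other row (100%). The miR-92 seed was shared with miR-25-3p, miR-32-5p, miR-363-3p and miR-92b-3p. Its pool was 5370, 5065 and 4433 RPM in GDE libraries and 7069, 5135 and 2944 RPM in Control libraries, and miR-92a-3p made up 34.9%, 40.9% and 48.9% of it in GDE libraries and 40.0%, 36.7% and 36.1% in Control libraries. The shares of the groups overlapped in each shared pool, and their widest exact binomial 95% interval, which covers counting error only, was 1.02 percentage points.

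**Figure D5:**
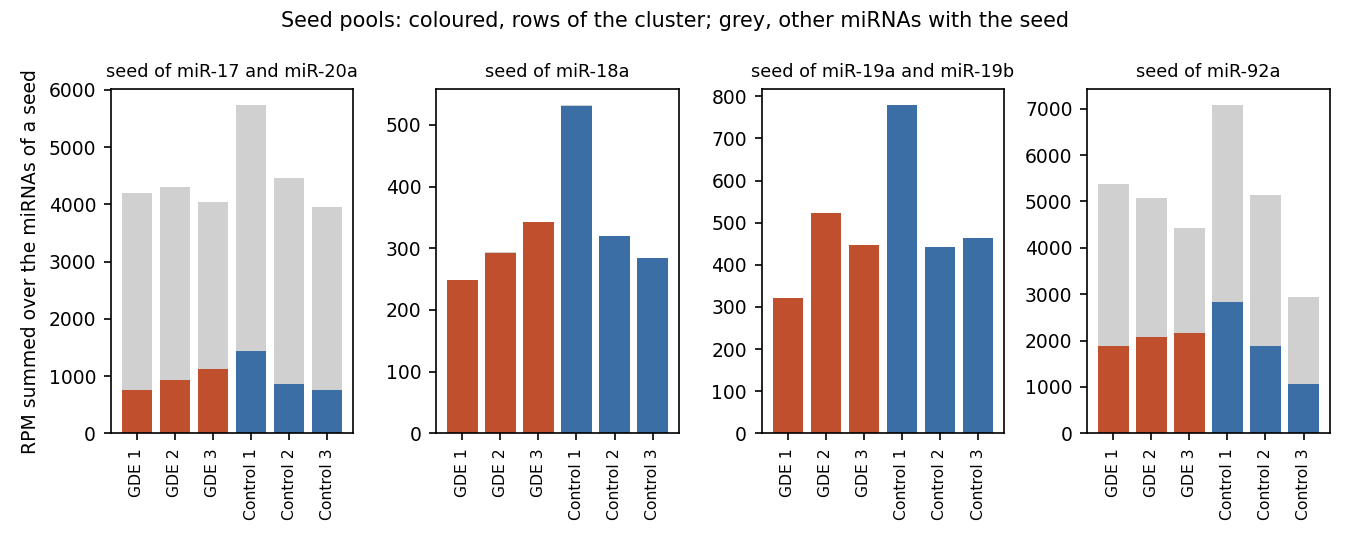
For each seed family of the guides, the summed level of the rows with that seed in the table is drawn per library in RPM, split into rows of the miR-17-92 cluster and other rows. Rows of the cluster hold nearly all of the miR-18 and miR-19 seeds and less than 50% of the miR-17 and miR-92 seeds in every library. Among these rows, miR-19b-3p and miR-92a-3p can also come from the hairpins on chromosome X.

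Of the relatives of the cluster, meaning the other arms of its hairpins, the rows of miR-106b-25 and miR-106a-363 and rows sharing a guide seed, 13 passed the low-value filter and 0 were called in limma (0 at an unadjusted p under 0.05). Their differences were 3 above and 10 below 0 with a median of -0.08, close to the -0.07 of all tested, and 6 above and 7 below with scaling to the tags of the table. The lowest Benjamini-Hochberg adjusted p among them was 0.567, for miR-20b-5p, at 2.50, 3.39 and 5.69 RPM in GDE libraries and 10.6, 6.30 and 4.25 RPM in Control libraries. The abundant miR-93-5p differed by -0.18 and miR-25-3p by -0.42, with limma Benjamini-Hochberg adjusted p of 0.643 and 0.621.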

How the data were processed

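The authors deposited 1 table of miRNA expression for the 6 libraries. Its values were read as RPM deposited by the authors: in each library 100% of the nonzero values were whole multiples of 1 step (tolerance 0.1 tags), which gives the value of 1 tag and the library depth. The submitters' processing notes name Bowtie2 and mm10; no label or header describes trimming, tag assignment or molecular identifiers. The limma intervals cover the spread between libraries. The exact binomial intervals and the limits on 0 counts cover counting error only.

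Rows of at least 1 RPM in 3 libraries (649) were tested with limma 3.58.1 in R 4.3.3, with a trend on log2(RPM + 1), two-sided, at a Benjamini-Hochberg threshold of 0.05. This scale understates the change of low miRNAs. On recovered whole tags edgeR 4.0.16 called 2, DESeq2 1.42.0 called 7 and limma-voom called 1. Arm ratios were tested in limma over 157 precursors with both arms past the filter. The tests were also run on simulated counts with 1 spread shared by all miRNAs and added changes larger than the differences of the members. No library was shifted as a whole there. The simulation therefore does not show how the tests handle smaller changes or a library like Control 1. Other alternatives were scaling, pseudocounts 0.1 and 10, other filters, repeated rows counted once, the replicate number as block, and each library left out.

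The miRNAs named were the 9 members, the other arms of the hairpins, the miR-106b-25 and miR-106a-363 clusters, rows sharing a guide seed and the 5 rows nearest in profile. Members and lists were chosen with earlier results of these data known. Of 1522 rows, 179 repeat another row's values, 0 of them members. Replicates differed beyond sampling noise (chi-square per degree of freedom 39.1 to 139.4). Sequences are from RefSeq (GRCm38.p6) and the host gene is from GENCODE M21. Other computing used Python 3.11.15, scipy 1.17.1 and pandas 2.3.3.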

Additional observations from a re-analysis of the deposited data

How the results depend on the processing

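The number of members called was 0 with every alternative run, and their Benjamini-Hochberg adjusted p lay between 0.523 and 1. Over all miRNAs, 2 were called with the settings of the report, 1 with a filter of at least 100 tags in 3 libraries (which removes miR-20a-3p), 7 with DESeq2, 1 with limma-voom and 2 to 3 when 1 library was left out; of arm ratios 1 was called with no filter. Of the log2 differences of members recomputed, 139 kept their direction and 13 reversed. For miR-20a-5p (-0.02) the reversals were 0.035 with scaling to the tags of the table, 0.072 with median-of-ratios scaling and DESeq2, 0.070 with edgeR and 0.051 with limma-voom. For miR-19b-1-5p they were 0.015 with median-of-ratios scaling and 0.0039 with limma-voom, for miR-92b-3p 0.0027, 0.039 and 0.023 with scaling to the table, median-of-ratios scaling and limma-voom, and for the miR-18a arm ratio -0.078 with a pseudocount of 10.

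Leaving out 1 library at a time gave ranges of -0.42 to -0.10 for miR-17-5p, -0.49 to -0.04 for miR-18a-5p, -0.45 to -0.07 for miR-18a-3p, -0.53 to -0.11 for miR-19b-3p, -0.19 to 0.53 for miR-17-3p, -0.20 to 0.39 for miR-19a-3p, -0.24 to 0.27 for miR-20a-5p, -0.24 to 0.11 for miR-20a-3p, -0.18 to 0.52 for miR-92a-3p, -0.27 to 0.21 for miR-19b-1-5p, -0.26 to 0.13 for miR-92a-1-5p, -0.45 to 0.22 for miR-92b-3p, -0.21 to 0.19 for the miR-18a arm ratio and -0.12 to 0.20 for the miR-20a arm ratio. Apart from miR-19a-3p, the highest value of every member came without Control 1, and the lowest of miR-20a-5p and miR-92a-3p without Control 3. For the summed level the range was -0.27 to 0.29. The cause was not tested.

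With the replicate number as a block 2 miRNAs, 0 members and 0 arm ratios were called. Libraries of the same number did not deviate together (correlations -0.03, -0.12 and -0.03 across miRNAs). Such correlations cannot tell whether libraries of the same number were collected or handled together. The 3 libraries per group limit the precision more than the depth.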

Other observations

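Of 627 tested miRNAs outside these lists, the 5 whose profile over the 6 libraries was nearest to that of the summed members were miR-6900-3p, miR-298-3p, miR-877-3p and 2 predicted miRNAs without a miRBase name. Their root mean square difference from the sum was 0.121 to 0.157 log2 units, against a median of 0.402 over the 627. These 5 were picked for the smallest difference, so lying below the median follows from the choice. For the members themselves it was 0.115 (miR-20a-5p) to 0.442 (miR-19a-3p). The levels of miR-298-3p were 14.9, 18.6 and 19.7 RPM in GDE libraries and 31.8, 19.6 and 16.0 RPM in Control libraries. The nearest, miR-6900-3p, had only 13 to 36 tags per library, and the 2 predicted miRNAs had 10 to 32 and 8 to 28.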
